A study of Mus musculus with 6 samples.

Results

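The 9 genes described here encode the peroxisome proliferator-activated receptors (Ppara, Ppard and Pparg), the retinoid X receptors (Rxra, Rxrb and Rxrg) and the PGC-1 coactivators (Ppargc1a, Ppargc1b and Pprc1). They were taken by gene symbol from a deposited table of 17924 genes. All 9 were listed there, and all 9 passed the filter on low values. The RNA came from dorsal dermal fibroblasts of newborn (P0) C57BL/6J mice, kept for 14 days in an adipocyte differentiation medium. Nelfb-/- cells were Nelfb fl/fl Pdgfra-Cre+, and CTL cells were Nelfb fl/wt or Nelfb wt/wt, also Pdgfra-Cre+, so that every library carried the Cre transgene. This Cre is driven by Pdgfra, which is active in preadipocytes and in other PDGFRA-expressing cells, so cells of the culture that never expressed it kept Nelfb. Values of single libraries are given in the order of replicates 1, 2 and 3. Each group had 3 libraries, and the labels do not say whether these came from separate mice, so the p-values measure the spread between these samples. Nelfb itself lay between 17.3 and 22.3 CPM (reads per 1e+06 reads assigned to the listed genes) in CTL and between 3.90 and 5.55 CPM in Nelfb-/- cells.

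PPARs are nuclear receptors that bind fatty acids and their derivatives, and they bind DNA as heterodimers with an RXR. Pparg is required for adipocyte formation and for the expression of lipid storage genes in mature fat cells, Ppara drives fatty acid oxidation in liver, heart and brown fat, and Ppard is broadly expressed. The PGC-1 proteins do not bind DNA themselves and are recruited by PPARs, ERR receptors and NRF1, through which they raise the expression of mitochondrial and oxidative genes.

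The depth lay between 17.2 M and 29.4 M reads per library (M, 1e+06), and 3 reads, taken as the floor of detection, were worth 0.102 to 0.175 CPM. The 9 genes were covered by between 22 reads (Rxrg in Nelfb-/- replicate 1) and 7333 reads (Rxra in CTL replicate 1). In a principal component analysis of the 16252 genes tested, the first axis held 59.9% of the variance and separated CTL from Nelfb-/- libraries. The second held 27.7% and set CTL replicate 3 (score -74.9) and Nelfb-/- replicate 1 (score 79.2) at opposite ends. Summed adipocyte markers were 23948 to 41067 CPM over the CTL libraries, against 16126 to 24307 CPM over the Nelfb-/- libraries, so that the sums overlapped. Of all genes tested, 16.1% were lower and 22% higher in every Nelfb-/- library, and 45.4% had a negative fold change. The marker counts in this paragraph are to be read against these shares. Of the 10 adipocyte markers, 3 were lower and 1 higher in every Nelfb-/- library, and 8 had a negative fold change. The 1 that was higher was Lep (leptin), at 0.18, 0.37 and 2.04 CPM in the CTL libraries, against 10.3, 32.4 and 33.05 CPM in the Nelfb-/- libraries (log2 fold change 5.26, SE 0.88, limma, adjusted p = 0.014). Summed macrophage markers were 166 to 652 CPM over the CTL libraries, against 1649 to 5166 CPM over the Nelfb-/- libraries, with 7 of 8 higher in every Nelfb-/- library. Fibroblast and preadipocyte markers summed to 2626 to 11940 CPM over the CTL libraries, against 6413 to 25711 CPM over the Nelfb-/- libraries. These sums overlapped, and 3 of 10 markers were higher in every Nelfb-/- library. Col1a1 made up 53.9 to 61.5% of the sum in CTL. The other 9 summed to 1175 to 4597 CPM over the CTL libraries, against 3686 to 13140 CPM over the Nelfb-/- libraries, which also overlapped. Skeletal muscle markers (9.38 to 12.4 against 47.5 to 92.04 CPM, 7 of 8 higher in every Nelfb-/- library), Schwann cell markers (46.9 to 58.1 against 90.3 to 115 CPM, 2 of 4, with Mbp lower in every Nelfb-/- library) and keratinocyte markers (1.77 to 2.28 against 3.18 to 12.2 CPM, 2 of 3) were low in both groups. Melanocyte markers (48.6 to 73.7 against 51.9 to 168 CPM, 5 of 6, with Tyr, Tyrp1 and Mlana under the floor in every CTL library) overlapped as a sum through Mitf, which made up 97.1 to 98.3% of it in CTL. The other 5 summed to 1.22 to 1.43 CPM over the CTL libraries, against 30.3 to 72.1 CPM over the Nelfb-/- libraries. Endothelial markers also overlapped as a sum (6.70 to 10.2 against 6.81 to 18.5 CPM, 1 of 4). Of the brown adipocyte markers, which summed to 38.5 to 92.5 CPM over the CTL libraries, against 2.703 to 15.4 CPM over the Nelfb-/- libraries, 4 of 5 were lower in every Nelfb-/- library, Cidea was under the floor in all 3 of them, and Ucp1 was not in the table. The part of these cell types in the levels of the 9 genes was not tested. In bulk RNA, fewer cells of a type and less RNA per cell cannot be told apart.

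Ppargc1b was the 1 gene of the 9 that was differentially expressed, at 0.479 times its CTL level in Nelfb-/- cells. The 9 genes ranged from a log2 fold change of -1.10 to 0.36, and 6 of them were negative. A gene is called differentially expressed here where limma gave it an adjusted p no larger than 0.05 together with a 2-fold or larger change, on log2 values with a pseudocount of 1 read and p adjusted over the 16252 genes that averaged 10 reads (0.448 CPM) or more. The share of all genes tested that met these limits was 11.2% in either direction (3.64% lower, 7.58% higher), so that 1 of 9 is close to the background. By the adjusted p alone the 1 gene was again Ppargc1b, against 15.8% of all genes (5.83% lower, 9.96% higher). At an unadjusted p below 0.05 in limma, 4 of the 9 passed, against 32.5% of all genes. The groups did not overlap at 5 of the 9 genes, 4 of them lower (Ppara, Pparg, Rxrb and Ppargc1b) and 1 higher (Ppard) in Nelfb-/- cells. Among all genes tested, 38.1% had groups apart, with 16.1% lower and 22% higher. The median log2 fold change of the 9 genes was -0.47, against 0.068 over all genes tested.

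**Figure D1:**
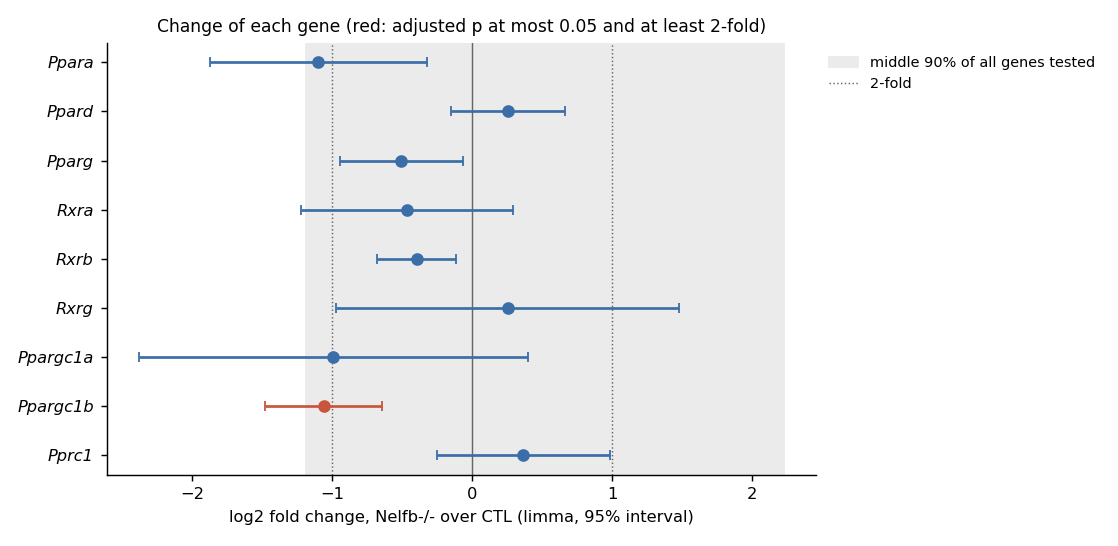
Log2 fold change of each of the 9 genes in Nelfb-/- relative to CTL cells (points) with its 95% interval from limma (bars, n = 3 per group), against the middle 90% of all genes tested (grey) and the 2-fold limits (dotted). Ppargc1b is the 1 gene in red, and the intervals of Ppara, Pparg and Rxrb also lie below 0.

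Among the PPAR genes, all 3 had groups that did not overlap, with Pparg and Ppara lower and Ppard higher in Nelfb-/- cells, and none of the 3 passed the adjusted p. Of all genes tested, 38.1% had groups apart (16.1% lower, 22% higher). Their annotated starts are shown first, since the table gives 1 value for each gene whatever the start. Pparg (ENSMUSG00000000440, chr6:115360951-115490399, plus strand) has 3 starts in RefSeq, a pair of neighbouring upstream starts and 1 near chr6:115422066 for the adipocyte-enriched Pparg2 form. The windows run from 250 bases before to 50 bases after each start on GRCm38.p6, 5′ to 3′, from RefSeq. Ppara (ENSMUSG00000022383, chr15:85734983-85802819) and Ppard (ENSMUSG00000002250, chr17:28232700-28301474), also on the plus strand, have 1 window each. Capitals mark the GC box GGGCGG and the nuclear receptor half-site AGGTCA on either strand, whose letters cannot overlap each other.
Pparg start 1, chr6:115360894-115361193: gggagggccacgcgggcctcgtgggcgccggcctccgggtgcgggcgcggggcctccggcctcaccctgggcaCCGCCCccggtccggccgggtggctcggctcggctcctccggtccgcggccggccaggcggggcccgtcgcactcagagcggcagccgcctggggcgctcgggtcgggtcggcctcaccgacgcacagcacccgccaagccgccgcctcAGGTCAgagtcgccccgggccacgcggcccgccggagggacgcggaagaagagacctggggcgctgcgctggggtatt
Pparg start 2, chr6:115362099-115362398: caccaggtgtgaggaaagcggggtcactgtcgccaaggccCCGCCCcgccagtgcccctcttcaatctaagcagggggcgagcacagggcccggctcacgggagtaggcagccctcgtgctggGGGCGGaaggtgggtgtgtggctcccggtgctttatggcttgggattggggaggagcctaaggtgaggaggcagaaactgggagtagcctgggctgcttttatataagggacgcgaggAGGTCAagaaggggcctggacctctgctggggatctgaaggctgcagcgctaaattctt
Pparg start 3, chr6:115421816-115422115: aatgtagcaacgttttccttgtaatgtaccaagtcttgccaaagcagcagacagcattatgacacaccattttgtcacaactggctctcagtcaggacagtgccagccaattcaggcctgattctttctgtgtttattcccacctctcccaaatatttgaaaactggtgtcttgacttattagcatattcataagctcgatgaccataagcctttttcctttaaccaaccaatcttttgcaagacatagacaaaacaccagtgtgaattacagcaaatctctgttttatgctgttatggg
Ppara, chr15:85735526-85735825: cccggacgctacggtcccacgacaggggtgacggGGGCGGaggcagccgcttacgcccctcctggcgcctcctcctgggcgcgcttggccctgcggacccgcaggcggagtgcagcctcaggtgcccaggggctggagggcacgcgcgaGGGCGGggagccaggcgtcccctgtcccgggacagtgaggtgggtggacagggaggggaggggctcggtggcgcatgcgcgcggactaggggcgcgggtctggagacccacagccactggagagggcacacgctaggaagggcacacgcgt
Ppard, chr17:28232504-28232803: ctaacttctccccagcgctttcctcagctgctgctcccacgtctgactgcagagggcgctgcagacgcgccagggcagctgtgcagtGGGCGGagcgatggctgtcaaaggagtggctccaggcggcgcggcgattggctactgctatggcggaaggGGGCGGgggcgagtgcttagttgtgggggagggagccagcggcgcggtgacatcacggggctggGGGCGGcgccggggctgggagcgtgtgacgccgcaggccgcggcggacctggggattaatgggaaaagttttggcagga
The first Pparg window had a GC content of 80.3%, with 1 GC box and 1 half-site, and the second 62.7%, with 2 GC boxes and 1 half-site. The third had 40.3% and held neither motif, so the Pparg starts lie on both sides of the median of 52.7% over 32851 promoter windows of the same length. The Ppara window (74.7%) held 2 GC boxes and the Ppard window (68.3%) held 3, without a half-site in either. A GC box was found in 35.7% of all windows and the half-site in 16.3%, and a match describes the letters and not the binding of a factor.

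Pparg, the receptor that adipocyte formation depends on, was measured at 158, 149.6 and 112 CPM in the CTL libraries, against 98.5, 109.6 and 85.2 CPM in the Nelfb-/- libraries. The groups did not overlap, but CTL replicate 3 was within 2 CPM of Nelfb-/- replicate 2. The means were 139.8 ± 24.8 and 97.8 ± 12.2 CPM (SD, n = 3), and the log2 fold change was -0.51 (SE 0.18, 95% interval -0.95 to -0.068, limma, adjusted p = 0.11). Without CTL replicate 3, the log2 fold change was -0.66 and the adjusted p in limma was 0.033, which is below the threshold of p but short of 2-fold. The other 5 fits with 1 library left out gave -0.59 to -0.41, with adjusted p from 0.14 to 0.33 in limma. Adipoq, whose transcription Pparg drives, was also lower in CTL replicate 3 (698 CPM) than in CTL replicates 1 and 2 (1768 and 1857 CPM), and it lay between 488 and 802 CPM in Nelfb-/- cells.

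Ppara, the receptor of fatty acid oxidation genes, was expressed at 11.7, 9.33 and 7.34 CPM in the CTL libraries, against 2.99, 6.11 and 4.41 CPM in the Nelfb-/- libraries. The groups did not overlap, and the lowest library was Nelfb-/- replicate 1. These levels rest on 63 to 260 reads per library. The means of 9.47 ± 2.19 and 4.50 ± 1.56 CPM (SD, n = 3) gave the largest log2 fold change of the 9 genes, at -1.10 (SE 0.32, 95% interval -1.87 to -0.32), which did not pass in limma (adjusted p = 0.067). With 1 library left out it lay between -1.35 and -0.84, with adjusted p from 0.052 to 0.21 in limma. After quantile normalization of all 6 libraries it passed both limits, at -1.34 on the log2 scale with an adjusted p of 0.044 in limma.

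Ppard was measured at 101, 96.9 and 98.8 CPM in the CTL libraries, which were the closest replicates of the 9 genes, against 149, 107 and 104 CPM in the Nelfb-/- libraries. All 3 Nelfb-/- libraries were above CTL, and replicate 1 was far above the other two. The log2 fold change was 0.26 (SE 0.17, 95% interval -0.15 to 0.66, limma, adjusted p = 0.35), and without Nelfb-/- replicate 1 it was 0.089.

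**Figure D2:**
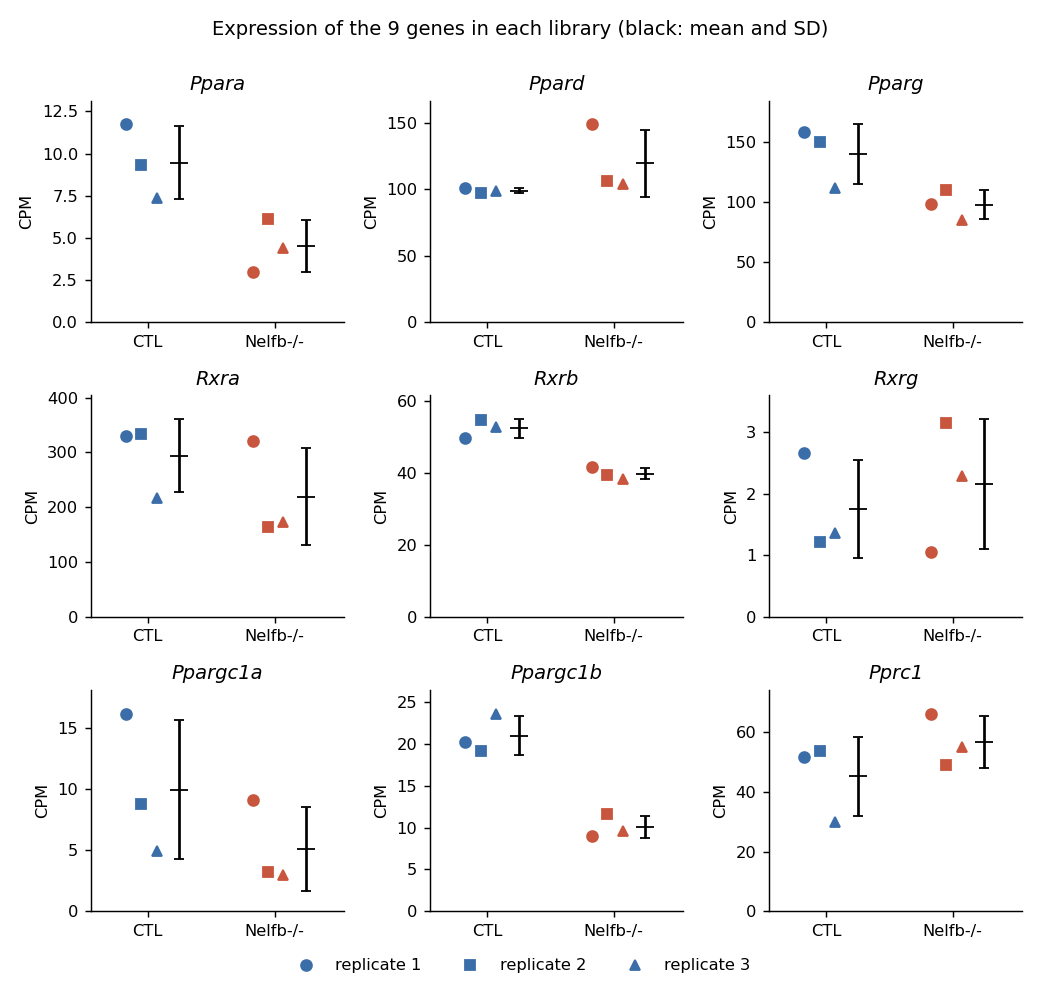
CPM of each of the 9 genes in each library (y axis, linear, from 0), with CTL in blue, Nelfb-/- in red, the replicate number given by the symbol, and the mean and SD (n = 3) in black. The groups do not overlap for Ppara, Ppard, Pparg, Rxrb and Ppargc1b, and Rxra has CTL replicates 1 and 2 beside Nelfb-/- replicate 1 above 300 CPM.

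The PPAR levels were also set against each other, after division by the exon length of each gene. Pparg made up 76.4, 76.8 and 71.5% of the summed PPAR level per kb in CTL replicates 1, 2 and 3 and 61.8, 70.2 and 65.8% in Nelfb-/- replicates 1, 2 and 3. Ppard took 19.2, 19.5 and 24.9% in CTL and 36.7, 26.8 and 31.6% in Nelfb-/- cells. Ppara took 4.36, 3.69 and 3.62% in CTL and 1.44, 3.01 and 2.62% in Nelfb-/- cells. For all 3 shares the groups did not overlap, with Pparg and Ppara lower and Ppard higher. The 3 shares make up the whole PPAR total, so the lower Pparg share and the higher Ppard share are not separate results. An exact two-sided permutation test of each share gave p = 0.1, the smallest that 3 against 3 libraries allow, and 0.18 after adjustment over the 9 shares tested, so that the design could not pass 0.05. The log2 ratio of Ppard to Pparg, per kb, was -1.99, -1.97 and -1.52 in CTL and -0.75, -1.39 and -1.06 in Nelfb-/- replicates 1, 2 and 3, so that Ppard was below Pparg in every library, and it was higher by 0.76 in Nelfb-/- cells. The ratio of Ppara to Ppard was lower by 1.35 and that of Ppara to Pparg by 0.59 on the log2 scale, again without overlap (exact permutation test, p = 0.1 for each, 0.18 after adjustment over 9 ratios). Leaving out Nelfb-/- replicate 1 brought the change of the ratio of Ppara to Pparg to -0.32. The PPAR total was 63.0 ± 8.99 CPM per kb in CTL and 50.2 ± 5.56 CPM per kb in Nelfb-/- cells (SD, n = 3), which overlapped (exact permutation test, p = 0.3).

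**Figure D3:**
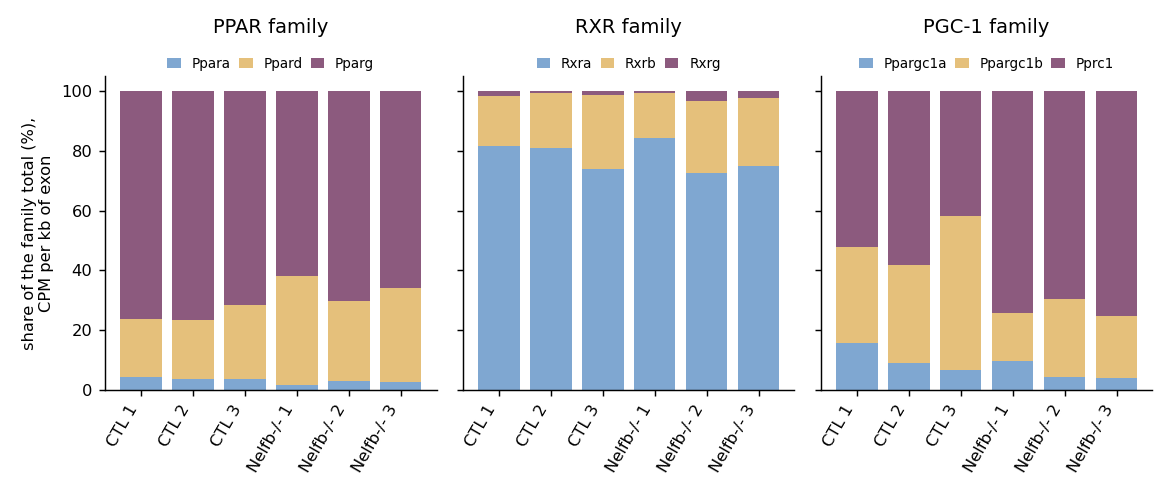
Share of each gene in the summed level of its family in each library, in percent of CPM per kb of exon (1 bar per library, no error bar). Pparg is smaller and Ppard larger in every Nelfb-/- library, Pprc1 is larger in every Nelfb-/- library, and the RXR bars overlap between the groups.

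Of the RXR genes, the obligate partners of the PPARs, Rxrb had groups apart (38.1% of all genes) and Rxra and Rxrg did not. Rxra (ENSMUSG00000015846, chr2:27676440-27762957) was measured at 331, 334 and 217 CPM in the CTL libraries, against 321, 163 and 174 CPM in the Nelfb-/- libraries. CTL replicates 1 and 2 and Nelfb-/- replicate 1 formed a high group, and the other libraries of both genotypes a low one, the same split as on the second axis above. The log2 fold change was -0.47 (SE 0.32, 95% interval -1.22 to 0.29, limma, adjusted p = 0.36). With 1 library left out it lay between -0.78 (without Nelfb-/- replicate 1, adjusted p = 0.070, limma) and -0.29 (without Nelfb-/- replicate 2, adjusted p = 0.67, limma).

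Rxrb (ENSMUSG00000039656, chr17:34031812-34038399), a broadly expressed RXR, was even within both groups, at 49.6, 54.7 and 52.6 CPM in the CTL libraries, against 41.5, 39.5 and 38.3 CPM in the Nelfb-/- libraries. The groups did not overlap, and the SD was 4.89% of the mean in CTL and 4.10% in Nelfb-/- cells. The log2 fold change was -0.40 (SE 0.12, 95% interval -0.68 to -0.11), with an adjusted p of 0.068 in limma. The adjusted p of Rxrb was 0.041 when libraries were scaled by the median of ratios and 0.037 after quantile normalization (limma), with the change under 2-fold in both. It was 0.15 with the replicate number as a block, 0.11 without a trend of the variance on abundance, and 0.056 to 0.25 with 1 library left out (limma).

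Rxrg (ENSMUSG00000015843, chr1:167598384-167639623), the RXR found mainly in muscle and nerve, rested on 22 to 59 reads per library. Its levels were 2.66, 1.21 and 1.36 CPM in the CTL libraries, against 1.04, 3.14 and 2.28 CPM in the Nelfb-/- libraries, with the highest and the lowest value both in Nelfb-/- cells. The log2 fold change of 0.25 had a 95% interval of -0.97 to 1.47 (SE 0.51, limma, adjusted p = 0.77), and it turned to -0.12 after quantile normalization and lay between -0.082 (without Nelfb-/- replicate 2) and 0.69 (without Nelfb-/- replicate 1) with 1 library left out. Within the family, Rxra made up 78.9 ± 4.17% of the summed RXR level per kb in CTL and 77.3 ± 6.27% in Nelfb-/- cells (SD, n = 3, exact permutation test, p = 0.9). The RXR total was 67.7 ± 12.3 CPM per kb in CTL and 51.1 ± 16.2 CPM per kb in Nelfb-/- cells, which overlapped (exact permutation test, p = 0.2).

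The coactivators split, with Ppargc1b lower, Pprc1 overlapping at a higher mean and Ppargc1a overlapping at a lower mean in Nelfb-/- cells. Ppargc1b (ENSMUSG00000033871, chr18:61298136-61400431, minus strand) encodes PGC-1 beta, a coactivator of ERR receptors and PPARs in mitochondrial gene expression, and it hosts the microRNA gene Mir378a. It was measured at 20.2, 19.2 and 23.6 CPM in the CTL libraries, against 9.01, 11.6 and 9.63 CPM in the Nelfb-/- libraries. The lowest CTL library was well above the highest Nelfb-/- library, and the spread within each group was small, at 11.0% and 13.3% of the mean. With means of 21.0 ± 2.31 and 10.1 ± 1.34 CPM (SD, n = 3), Ppargc1b fell by 1.06 on the log2 scale (SE 0.17, 95% interval -1.48 to -0.64, limma, adjusted p = 0.013). Its size is near the 2-fold limit, and 19.5% of the genes tested had a larger change in either direction. Leaving out 1 library at a time gave log2 fold changes from -1.16 to -0.97, and the call held in 1 of these 6 fits, that without Nelfb-/- replicate 2. The adjusted p in limma was 0.055 with CTL replicate 1 left out, 0.0502 with CTL replicate 2 left out and 0.070 with Nelfb-/- replicate 3 left out. The change was just under 2-fold where CTL replicate 3 was left out (-0.97, limma, adjusted p = 0.018) or Nelfb-/- replicate 1 (-0.98, limma, adjusted p = 0.022).

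Ppargc1a (ENSMUSG00000029167, chr5:51454250-51567726, minus strand) encodes PGC-1 alpha, the inducible coactivator of thermogenesis and of the fasting response. Its levels were 16.2, 8.82 and 4.93 CPM in the CTL libraries, against 9.10, 3.26 and 2.98 CPM in the Nelfb-/- libraries. The highest library was more than 3-fold above the lowest in each group, and the groups overlapped through Nelfb-/- replicate 1. Its log2 fold change of -0.99 was near that of Ppargc1b, with a standard error of 0.58 and a 95% interval of -2.38 to 0.40 (limma, adjusted p = 0.29). With 1 library left out it lay between -1.50 (without Nelfb-/- replicate 1, adjusted p = 0.094, limma) and -0.56 (without CTL replicate 1, adjusted p = 0.63, limma). The log2 ratio of Ppargc1a to Ppargc1b differed by 0.071 between the groups and overlapped (exact permutation test, p = 1).

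Pprc1 (ENSMUSG00000055491, chr19:46044886-46072915), the PGC-1-related coactivator of growth-induced mitochondrial genes, was measured at 51.8, 53.8 and 30.02 CPM in the CTL libraries, against 66.1, 49.0 and 55.1 CPM in the Nelfb-/- libraries. CTL replicate 3 was the lowest library, and the other two CTL libraries exceeded Nelfb-/- replicate 2. The change on the log2 scale was 0.36 (SE 0.26, 95% interval -0.25 to 0.98, limma, adjusted p = 0.38). Leaving out CTL replicate 3 brought it to 0.094 (adjusted p = 0.70, limma). The gene overlaps Ldb1, which lies on the opposite strand and was at 81.7 to 105.6 CPM, and whether reads were counted by strand is not given in the sources used here.

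Per kb of exon, Pprc1 took a larger share of the summed PGC-1 level in every Nelfb-/- library. The level of Pprc1 itself overlapped between the groups, and its share also depends on Ppargc1b, which was lower. Whether reads of the overlapping Ldb1 enter the Pprc1 level is not known. The Pprc1 share was 52.3, 58.2 and 41.7% in CTL and 74.3, 69.7 and 75.4% in Nelfb-/- replicates 1, 2 and 3. Ppargc1b took 32.1, 32.8 and 51.7% in CTL and 15.9, 25.9 and 20.8% in Nelfb-/- cells. The groups did not overlap for either share (exact permutation test, p = 0.1, 0.18 after adjustment over 9 shares). The difference in the Ppargc1b share was -18.0 percentage points, and -11.6 without CTL replicate 3. Ppargc1a took 10.4 ± 4.67% in CTL and 6.02 ± 3.25% in Nelfb-/- cells, which overlapped (exact permutation test, p = 0.3), and the difference of -4.39 percentage points was -1.795 without CTL replicate 1. The log2 ratio of Ppargc1b to Pprc1 was lower by 1.42 and that of Ppargc1a to Pprc1 by 1.35, both without overlap. The total was 14.0 ± 2.25 CPM per kb in CTL and 12.3 ± 1.599 CPM per kb in Nelfb-/- cells (SD, n = 3, exact permutation test, p = 0.3).

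Ranked by mean level per kb of exon, Rxra (53.8 CPM per kb) and Pparg (47.3) led in CTL, followed by Ppard and Rxrb (13.2 each), Pprc1 (7.19), Ppargc1b (5.27), Ppara (2.47), Ppargc1a (1.51) and Rxrg (0.76). The ranges of the libraries overlapped between Rxra and Pparg, Ppard and Rxrb, Pprc1 and Ppargc1b, Ppara and Ppargc1a, and Ppargc1a and Rxrg, so these neighbours did not differ beyond their spread. Within each of the 3 CTL libraries, Rxra was above Pparg, Ppara above Ppargc1a and Ppargc1a above Rxrg. In Nelfb-/- cells the order of the means was the same except that Rxrg (0.94) stood above Ppargc1a (0.78), which was within their spread, since their ranges overlapped and Rxrg was above in 2 of 3 libraries. The ranges there also overlapped between Rxra and Pparg (Rxra above in 2 of 3 libraries), Rxrb and Pprc1, and Ppara and Rxrg. Ppard (15.9) and Rxrb (10.003), level in CTL, were apart there. With the longest transcript in place of all exons, an alternative chosen after seeing the data, Pparg stood above Rxra in both groups (65.8 against 59.9 CPM per kb in CTL).

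Among 35 nuclear receptor genes found in the table, of 47 listed, Rxra and Pparg were 2nd and 3rd in CTL and 1st and 2nd in Nelfb-/- cells by mean level per kb. Nr1d1, the clock receptor REV-ERB alpha, led in CTL at 54.5 ± 24.5 CPM per kb. Ppard and Rxrb held places 10 and 11 in CTL and 6 and 12 in Nelfb-/- cells. Ppara held places 23 and 25, and Rxrg places 26 and 27. A list of RXR partners held receptors such as the retinoic acid, thyroid hormone, vitamin D and LXR receptors. Of the 11 tested, 3 rose and 0 fell, against 7.58% higher and 3.64% lower of all genes. An unadjusted p below 0.05 in limma was found for 7 of the 11 (32.5% of all genes), and their median log2 fold change was 0.20 (0.068 over all genes). By the adjusted p alone 3 were higher and 1 lower (9.96% and 5.83% of all genes). Vdr, the vitamin D receptor, rose from 12.5 ± 8.08 to 65.3 ± 28.2 CPM (SD, n = 3, log2 fold change 2.45, SE 0.53, limma, adjusted p = 0.028). Nr4a1 and Nr4a2, immediate early receptors that bind RXR, rose by 1.48 (SE 0.19) and 1.72 (SE 0.30). The count of 3 was 1 without CTL replicate 1, CTL replicate 2, Nelfb-/- replicate 2 or Nelfb-/- replicate 3.

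**Figure D4:**
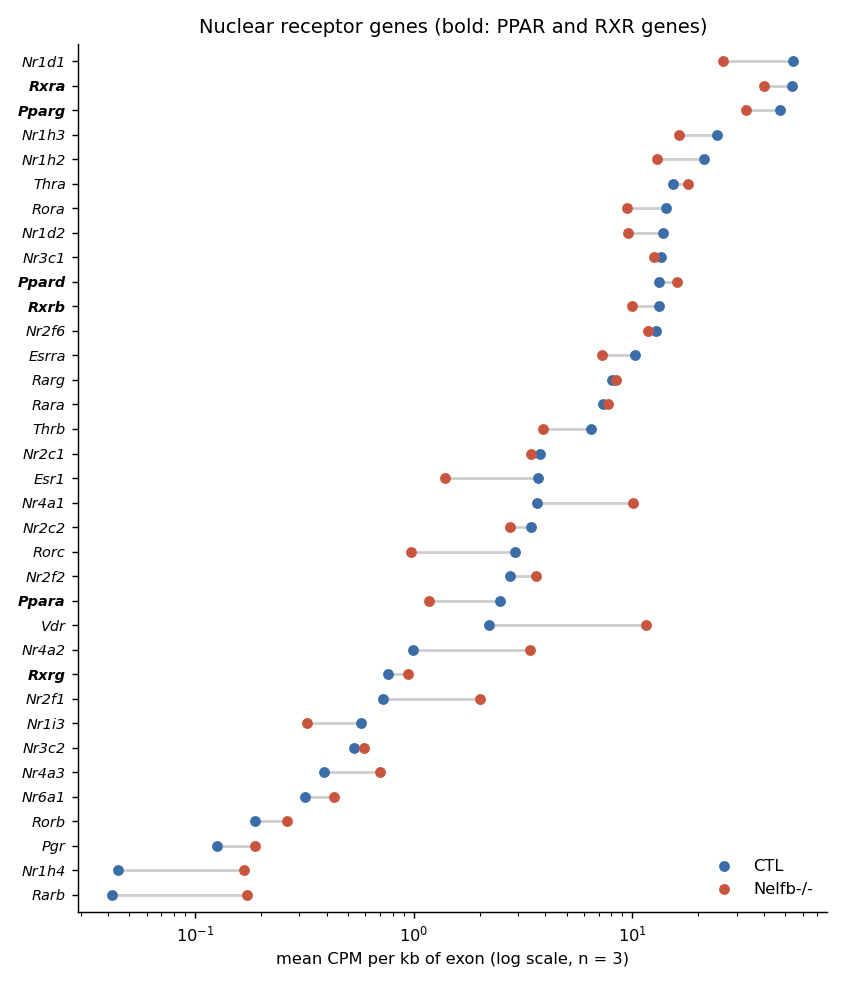
Mean CPM per kb of exon (log axis, n = 3 per group, no error bar) of the 35 listed nuclear receptor genes in the table, ordered by CTL, with CTL in blue and Nelfb-/- in red. The PPAR and RXR genes in bold span the range from Rxra near the top to Rxrg, and Vdr has its Nelfb-/- mean far to the right of CTL.

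The genes that PPARs act on were then examined in lists written from general knowledge, but chosen with earlier results of these data known. Their counts therefore describe these data and are not an independent test. Of 33 tested PPAR target genes of lipid uptake, storage and adipocyte function, 9 fell and 1 rose, where 3.64% of all genes fell and 7.58% rose, and the median log2 fold change was -0.70 against 0.068 over all genes. By the adjusted p alone 10 were lower and 1 higher (5.83% and 9.96% of all genes). Adipoq, Plin1, Cfd, Fabp4, Lipe, Pnpla2, Cidec and Lpl of this list are also among the adipocyte markers above, and none of them passed both limits. Cidea, which passed, is also among the brown adipocyte markers. The part of fat cell content in these changes was not tested. Cidea, a lipid droplet protein of oxidative fat, was at 10.96, 7.23 and 10.03 CPM in CTL and under the floor in all 3 Nelfb-/- libraries, which is at least 64.2-fold lower against a floor of 3 reads per library. Plin5, which ties lipid droplets to mitochondria, fell from 63.9 ± 8.504 to 2.47 ± 1.06 CPM (SD, n = 3, log2 fold change -4.76, SE 0.35, limma, adjusted p = 0.0033). Fabp5, a fatty acid binding protein, fell by 1.63 (SE 0.17), and Olr1, a scavenger receptor, rose by 1.53 (SE 0.16). The count of 10 was 6 without CTL replicate 1 or CTL replicate 2 and 4 without Nelfb-/- replicate 3.

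Of 26 tested PPAR target genes of fatty acid oxidation and ketone bodies, 8 fell and 1 rose (3.64% and 7.58% of all genes), and the median log2 fold change was -0.92 (0.068 over all genes). By the adjusted p alone 11 were lower and 1 higher (5.83% and 9.96% of all genes). Cpt1b, the muscle and brown fat form of the enzyme that lets fatty acids into mitochondria, fell from 19.0 ± 10.3 to 2.58 ± 0.28 CPM (SD, n = 3, log2 fold change -2.74, SE 0.37, limma, adjusted p = 0.0080). Cpt1a, its widely expressed counterpart, was the 1 gene that rose, by 1.13 (adjusted p = 0.039, limma), and it is named after its value was seen. Acadl, an acyl-CoA dehydrogenase, fell by 1.051 (SE 0.17), Slc25a20, the carnitine carrier, by 1.20 (SE 0.20) and Acot2, a mitochondrial thioesterase, by 1.51 (SE 0.20). Pdk4, a PPAR target that spares glucose, did not pass, at 700.2, 762 and 131 CPM in the CTL libraries, against 192, 41.0 and 45.7 CPM in the Nelfb-/- libraries, where CTL replicate 3 lay below Nelfb-/- replicate 1. The count of 9 was 2 without CTL replicate 1, CTL replicate 2 or Nelfb-/- replicate 3, and 4 without the abundance trend in the variance.

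Of 16 tested partners of PGC-1 and genes of mitochondrial gene expression, none passed in limma (11.2% of all genes did), 5 had an unadjusted p below 0.05 (32.5% of all genes), and 14 were negative (45.4% of all genes). Their median log2 fold change was -0.25, against 0.068 over all genes. After quantile normalization 1 passed. Esrra, the ERR receptor that PGC-1 proteins coactivate, was at -0.48 on the log2 scale (adjusted p = 0.095 in limma), Tfam, the mitochondrial transcription factor, at -0.42 (0.072) and Nrf1 at -0.098 (0.64), and these 3 were named after their values were seen.

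Of 23 tested coactivators and corepressors of nuclear receptors, 1 fell and 0 rose, a share below the 11.2% of all genes, and 4 had an unadjusted p below 0.05 in limma (32.5% of all genes). Their median log2 fold change was -0.017. By the adjusted p alone 1 was lower and 1 higher (15.8% of all genes). The 1 was Lpin1, a phosphatidate phosphatase that also acts as a coactivator with PGC-1 alpha, at 709, 740.5 and 384 CPM in the CTL libraries, against 303, 193 and 177 CPM in the Nelfb-/- libraries (log2 fold change -1.43, SE 0.33, limma, adjusted p = 0.034). The call of Lpin1 was not made without CTL replicate 1, CTL replicate 2, Nelfb-/- replicate 2 or Nelfb-/- replicate 3. Of 21 tested regulators of PGC-1 and PPAR proteins, 1 fell and 0 rose, again a share below the 11.2% of all genes, and 9 had an unadjusted p below 0.05 in limma (32.5% of all genes). Their median log2 fold change was -0.072. By the adjusted p alone 3 were lower and 3 higher, a share above the 15.8% of all genes. The 1 was Sirt3, a mitochondrial deacetylase whose expression PGC-1 alpha raises, which fell from 13.4 ± 1.02 to 6.06 ± 1.04 CPM (SD, n = 3, log2 fold change -1.15, SE 0.20, limma, adjusted p = 0.014). Sirt1, the deacetylase that activates PGC-1 alpha, was at 0.87 on the log2 scale (adjusted p = 0.044 in limma), short of 2-fold. The call of Sirt3 was not made without CTL replicate 1, Nelfb-/- replicate 2 or Nelfb-/- replicate 3.

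**Figure D5:**
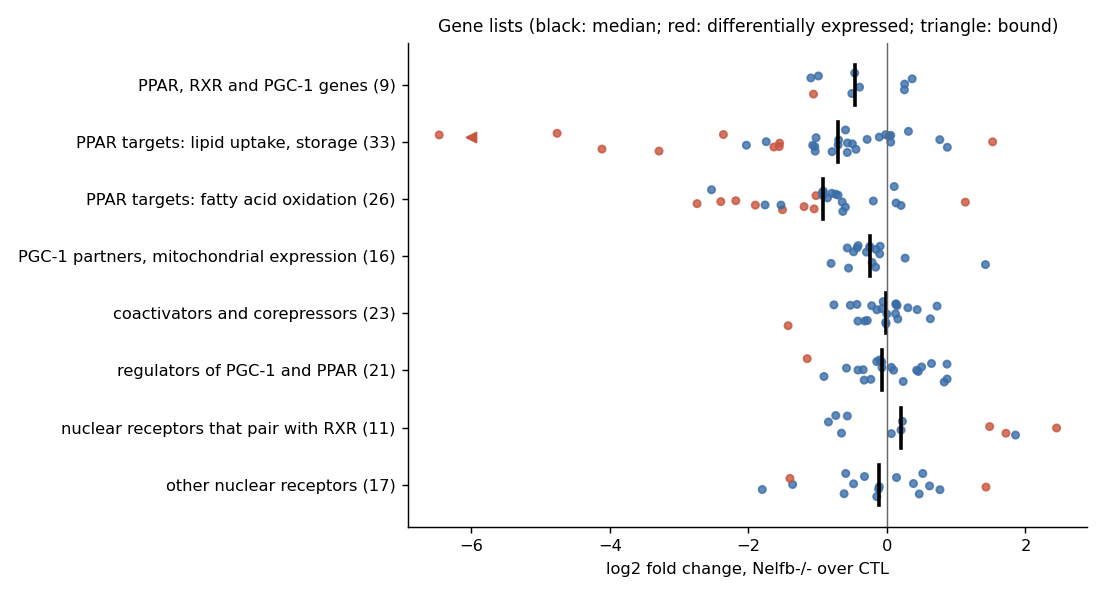
Log2 fold change of each tested gene (points, Nelfb-/- relative to CTL, number tested in brackets) in the 9 genes and in 7 lists, with the median as a black bar, differentially expressed genes in red and Cidea as a triangle at its bound. Red points below 0 are most frequent in both lists of PPAR targets, while the list of PGC-1 partners has none.

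By likeness of level across the 6 libraries, Pparg was closest to Aldh5a1 (Pearson r 0.994 of log2 values), Arl2 (0.993) and Lsm14b (0.992) among 10056 genes with a mean of at least 10 CPM. Ppara was closest to Prkar2b, Coq5 and Prxl2a (0.997 each). These values describe 6 libraries that all genes share, and the genes named were picked for having the highest values.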

How the data were processed

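The RNA of 3 CTL and 3 Nelfb-/- libraries was measured after 14 days in adipocyte medium. The table that the authors deposited holds CPM values, with an offset of 0.0001 added to each. The submitters' processing notes name mm10, STAR (2.7) and Partek (9.0.20.0202). The study's methods state that genes under 10 reads were left out. How reads were counted is not given in the sources used here. The offset was subtracted, and the CPM worth of 1 read was taken from the steps between low values. Between 69.4% and 72.0% of values up to 20 reads lay within 0.02 of a whole number, so the values were not taken as counts. Values were multiplied by the geometric mean depth of 22.3 M reads (M, 1e+06), and genes averaging 10 reads or more entered limma (3.58.1, in R 4.3.3), run on log2(value + 1) with an abundance trend, which understates the change of low genes. The pseudocount and the filter had been written without a unit and were set in reads once the unit was known. The p-values of all 16252 genes were adjusted together (Benjamini-Hochberg), and the script was tested on simulated data. Ratios and shares within families were tested by exact two-sided permutation (scipy 1.17.1). Levels between genes were divided by exon length (GENCODE vM21). Promoter windows came from RefSeq (GRCm38.p6) and matched 8 of the 9 genes, and those of Rxra, Rxrb, Rxrg, Ppargc1a and Pprc1 are not printed. The 9 genes and the lists were chosen with earlier results of these data known. The text names the 9 genes, Nelfb, in each list up to 4 genes that passed with the lowest p and up to 4 that did not with the largest change, and the 3 genes most like Pparg and Ppara. Outside this rule, Cpt1a, Esrra, Tfam and Nrf1 were named after their values were seen. Genes that overlap a member and markers shared between lists were also named. 1 listed gene is not reported here and was left out of its list. The replicate numbers did not pair the samples. Counting error alone underlies the floor of 3 reads.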

Additional observations from a re-analysis of the deposited data

How the results depend on the processing

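The log2 fold changes of 8 of the 9 genes kept their sign under all 17 alternatives, and that of Rxrg turned to -0.12 with quantile normalization and, over the fits with 1 library left out, lay between -0.082 (without Nelfb-/- replicate 2) and 0.69. Differentially expressed genes among the 9 numbered 0 on log2(CPM + 1), where Ppargc1b was at -0.99, 2 with quantile normalization (Ppargc1b and Ppara), and 0 to 1 with 1 library left out. At the adjusted p alone they numbered 2 with the median of ratios, 3 with quantile normalization and 0 to 2 with 1 library left out. Over all genes, 426 to 2479 passed both limits with 1 library left out (136 to 776 lower, 290 to 1703 higher) against 1824, and 434 to 3668 passed the adjusted p alone against 2566. The lowest counts came without Nelfb-/- replicate 3 (426), CTL replicate 2 (758), CTL replicate 1 (871) and Nelfb-/- replicate 2 (945), and the cause was not tested. Of the calls, 67.5% were higher, against 54.9% with quantile normalization, which moved the median of all genes from 0.068 to -0.068.

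With quantile normalization the change of the log2 ratio turned to 0.019 for Rxra to Rxrb and to -0.021 for Ppargc1a to Ppargc1b, and the difference in the Rxrb share turned to -0.24 percentage points. With 1 library left out, the change of the ratio of Rxra to Rxrb lay between -0.35 and 0.10, that of Ppargc1a to Ppargc1b between -0.52 and 0.53, the difference in the Rxrb share between -1.11 and 3.49 percentage points, and that in the Rxra share between -5.20 and 0.73 percentage points. All of these overlapped between the groups. Samples with the same replicate number deviated together for numbers 1 and 3 (r = 0.52 for each) and not for number 2 (r = -0.39), and CTL replicate 2 was closest to Nelfb-/- replicate 1. With the replicate number as a block, 2175 genes passed (670 lower, 1505 higher), Ppargc1b passed with an adjusted p of 0.025 in limma, and no other of the 9 did. With 3 libraries per group, a change under 2-fold with the spread of Ppargc1a or Rxrg was not detectable, and Rxrg was too low to be tested with a mean of at least 50 reads.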

Other observations

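A further list held nuclear receptors outside the PPAR and RXR genes and outside the list of RXR partners used above. Of its 17 tested genes, 1 fell and 1 rose, a share close to the 11.2% of all genes. An unadjusted p below 0.05 in limma was found for 5 (32.5% of all genes). Their median change was -0.12 on the log2 scale, against 0.068 over all genes. Esr1, estrogen receptor alpha, fell from 50.4 ± 5.47 to 19.0 ± 1.18 CPM (SD, n = 3, log2 fold change -1.40, SE 0.14, limma, adjusted p = 0.0042). Nr2f1 (COUP-TF1) rose from 3.69 ± 0.58 to 10.2 ± 2.79 CPM (log2 fold change 1.43, SE 0.28, limma, adjusted p = 0.020). The clock receptors Nr1d1 and Rora did not pass, with log2 fold changes of -1.36 (SE 0.68) and -0.62 (SE 0.45), and CTL replicates 1 and 2 with Nelfb-/- replicate 1 were their 3 highest libraries, as for Rxra. The count of 2 was 4 without Nelfb-/- replicate 1 and 1 without CTL replicate 1, CTL replicate 2 or Nelfb-/- replicate 2.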
